A study of Mus musculus with 4 samples.

Results

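Mature miRNAs of mouse secondary neurospheres were compared between 1 array titled NFIA OE and 1 array titled control, which are 2 of the 4 arrays of the study. The cells were neural stem and progenitor cells made from embryonic stem cells and grown as floating spheres to passage 1, at day 12. At that point each sample had been sorted by fluorescence out of spheres in which NFIA-overexpressing and control cells were mixed. The construct, its promoter and the number of clones are not given in the sources used here, and both samples came from such mixed spheres. All 611 mouse miRNAs with non-control probes on the array were taken. A miRNA was counted as detected on an array where the scanner marked at least 50% of the spots of 1 of its probes as well above background. By that rule 209 miRNAs were detected on the array titled control and 207 on the array titled NFIA OE, and 195 were measured on both. Another 12 were detected on the NFIA OE title alone (1.96% of the 611), 14 on the control title alone (2.29%), and 390 on neither.

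The direction of every difference given here rests on the sample titles. The source name of the array titled control states an NFIA OE line, and that of the array titled NFIA OE states WT. If the source names are right, each sign turns. NFIA is a protein-coding gene, so these arrays hold no probe that could tell which label is right. With 1 array per title there is no replicate and no test. The standard error (SE) given with a difference is over the spots of the probes used, and it covers the technical error of 1 hybridisation, not the spread between cultures.

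Mature miRNAs are short RNAs that guide Argonaute proteins to messenger RNAs, mainly through the seed, bases 2 to 8 from the 5′ end. miRNAs that share a seed can share targets. NFIA is a transcription factor that drives neural progenitors toward astrocyte production. In the developing nervous system, miRNAs encoded inside the Hox clusters follow the position of cells along the head-to-tail axis, miR-9 and miR-124 mark neural progenitors and neurons, and the miR-290 and miR-302 clusters mark pluripotent stem cells.

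The miRNAs on which the comparison turned are shown first, so that shared seeds and single-base differences can be seen. Sequences are RefSeq mature miRNAs (build GRCm38.p6), 5′ to 3′, with the seed in capitals. The first 4 lie in Hox clusters, the next 3 belong to miR-199 and miR-214, the next 4 to clusters of pluripotent cells. The last 7 had lower values on the NFIA OE title, namely miR-137, miR-551b, the strands miR-9 and miR-9*, miR-7a, and let-7c and let-7d.
miR-10a: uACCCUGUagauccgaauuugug
miR-10b: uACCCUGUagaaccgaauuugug
miR-196a: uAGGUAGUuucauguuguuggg
miR-196b: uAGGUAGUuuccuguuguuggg
miR-199a-3p: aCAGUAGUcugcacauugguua
miR-199a-5p: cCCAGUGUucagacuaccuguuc
miR-214: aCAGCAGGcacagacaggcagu
miR-294: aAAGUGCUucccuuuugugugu
miR-291a-3p: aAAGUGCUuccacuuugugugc
miR-295: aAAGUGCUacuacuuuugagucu
miR-302b: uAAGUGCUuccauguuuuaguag
miR-137: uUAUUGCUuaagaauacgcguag
miR-551b: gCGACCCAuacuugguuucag
miR-9: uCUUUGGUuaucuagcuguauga
miR-9*: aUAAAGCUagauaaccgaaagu
miR-7a: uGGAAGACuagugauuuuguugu
let-7c: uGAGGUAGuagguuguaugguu
let-7d: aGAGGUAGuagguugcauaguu
Counted from the 5′ end, miR-10a and miR-10b differ by U12A and miR-196a and miR-196b by A12C. In each of these pairs the seed is shared. How far a probe also reads the near-identical partner was not tested, so the split of signal within such a pair is uncertain.

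Most miRNAs differed little between the titles. Before scaling, the 75th percentile of probe intensity was 443 units on the array titled control and 369 on the array titled NFIA OE, so equal raw intensities become a log2 difference of about 0.27 after each array is divided by its own percentile. Over the 195 miRNAs the scaled log2 difference, NFIA OE title minus control title, had a median of -0.08 and quartiles of -0.23 and 0.13. Of the 195, 178 (91.3%) lay within 1.5-fold. The median SE over spots was 0.04 and the largest 0.22, and 151 differences were larger than 2 SE. Where 2 or more probes read a miRNA, in 132 cases, their differences lay a median of 0.05 apart and at most 0.31 apart. The error over spots was thus much smaller than the title differences of the leading miRNAs. Agreement between probes could be seen for miR-10b (2.04 and 2.11) and miR-199a-3p (2.32 and 2.41). For miR-10a, miR-199b*, miR-139-3p and miR-137 only 1 probe was used, so they are not among the 132. Neither measure says anything of another culture.

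At 2-fold or more, 7 miRNAs (3.59% of 195) were higher on the NFIA OE title and 2 (1.03%) lower. At 1.5-fold or more the split was 10 (5.13%) and 7 (3.59%), and at any size 81 (41.5%) and 114 (58.5%). The 1.5-fold split shifted with the scaling between arrays. It was 8 and 27 with a percentile over all probes, 8 and 31 with no scaling, 9 and 17 in the authors' deposited values, and 26 and 3 where bright control probes set the scale. The median over all miRNAs ran from -0.34 with no scaling to 0.15 with the control probes, and each difference is to be read beside that shift. The 4 largest differences stood at least 2-fold apart under every scaling.

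**Figure D1:**
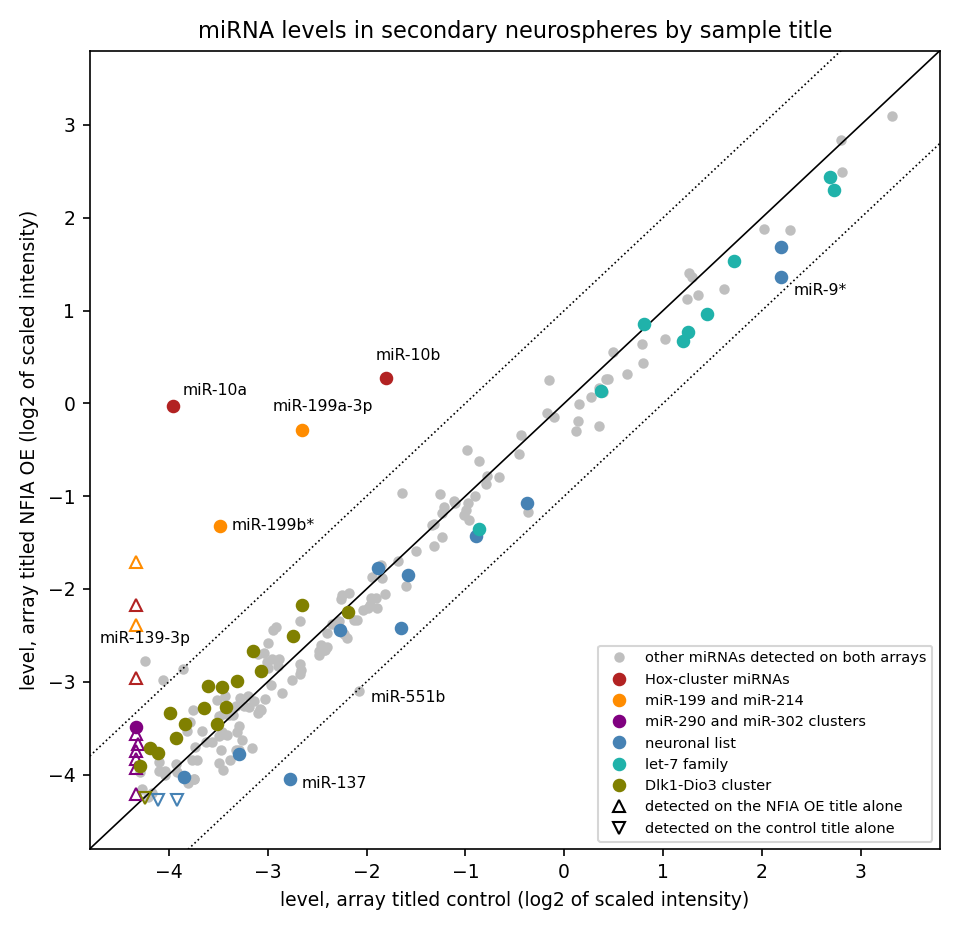
Each point is a mouse miRNA in secondary neurospheres, with its level on the array titled control (x axis) against the array titled NFIA OE (y axis), both as log2 of intensity divided by the array's 75th percentile. The solid line marks equal levels, the dotted lines 2-fold, and open triangles miRNAs of the coloured lists detected on 1 title, drawn at the lowest detected signal of the other array or at their own where that is higher. miR-10a, miR-10b, miR-199a-3p and miR-199b* stand far above the upper dotted line, and miR-137 and miR-551b lie under the lower one.

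miRNAs of the Hox clusters were higher on the NFIA OE title. These miRNAs sit between or inside Hox genes, which set positional identity along the body axis, and target some of them. In the RefSeq gene table Mir10a lies within Hoxb3, on chromosome 11, at chr11:96317186-96317208 on the plus strand. miR-10a had the largest difference of all, 3.92 (SE 0.09), which is 15.2-fold, or a log2 difference of 2.44 with normexp background correction, and its signal on the control title lay near the detection limit. The spots of its brighter probe lay between 22.1 and 37.3 units (median 26.97) on the control title and between 340.5 and 379.9 (median 358.8) on the NFIA OE title. The other probe gave 7.52 units on the control title, not well above background, and 137 on the NFIA OE title. Every spot of both probes was thus brighter on the NFIA OE title than any on the control title.

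miR-10b, within Hoxd3 and Hoxd4 at chr2:74726074-74726096 (plus strand), differed by 2.08 (SE 0.03), or 4.22-fold. Its probes gave 81.2 and 197 units on the control title and 291 and 677 on the NFIA OE title. Unlike miR-10a, it was clearly detected by both probes on both arrays. Its partner strand miR-10b*, like miR-10a*, was not well above background on either array.

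miR-196a and miR-196b were well above background only on the array titled NFIA OE. The mature miR-196a is made from Mir196a-1, between Hoxb13 and Hoxb9, and Mir196a-2, between Hoxc10 and Hoxc9. All 4 of its probes were dim on the control title, at 4.58 to 13.03 units, and bright on the NFIA OE title, at 48.7 to 109.8. Set against the lowest detected signal of the control array, miR-196a was at least 4.48-fold higher on the NFIA OE title. miR-196b, between Hoxa9 and Hoxa10, gave 4.0 units against 47.3 by its detected probe and was at least 2.59-fold higher. Of the 9 Hox-cluster miRNAs on the array, 4 were detected on the NFIA OE title and 2 on the control title. Over all 611 miRNAs, 207 and 209 were detected on these titles. None (0) of the 9 was detected on either primary array, beside 220 (NFIA OE title) and 186 (control title) of all 611. The 4 detected are encoded in all 4 mammalian Hox clusters, A to D. miR-615, the other Hox-cluster miRNA listed, was not well above background on either secondary array.

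**Figure D2:**
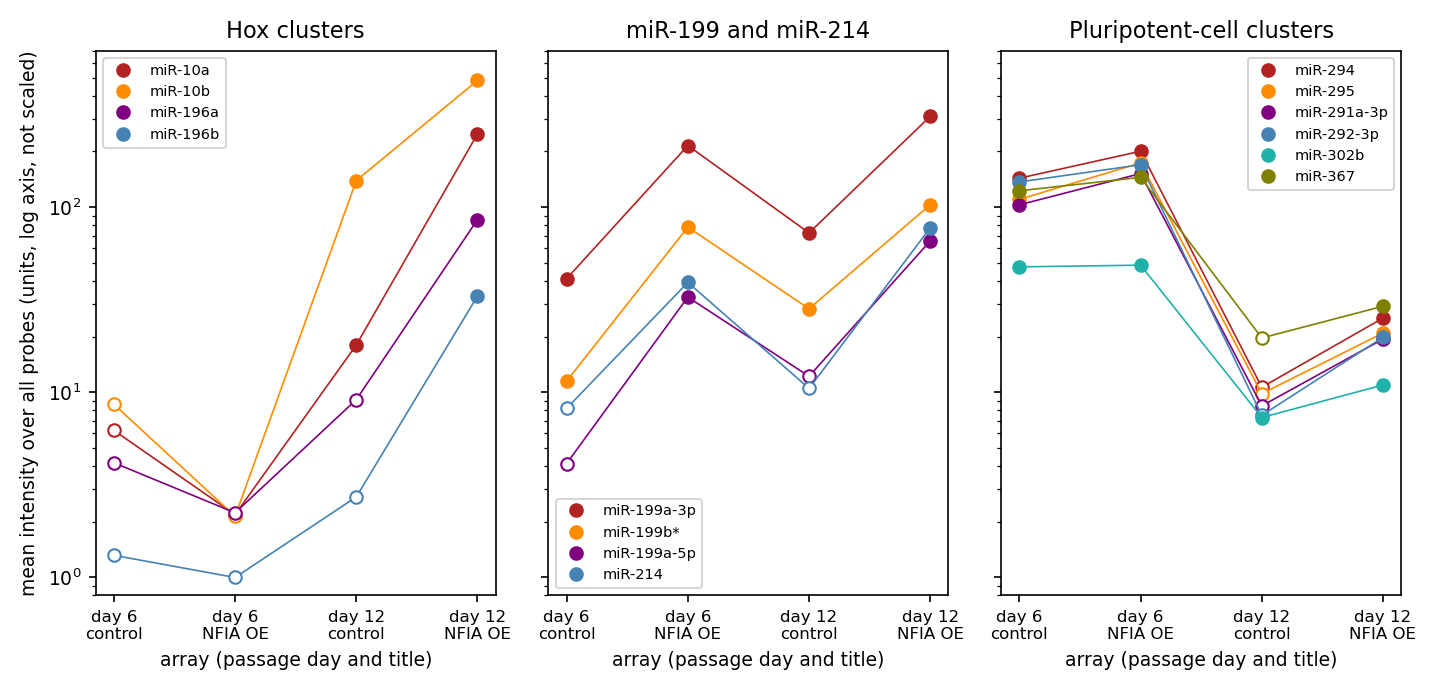
Mean intensity over all probes of a miRNA, in units on a log axis and not scaled between arrays, on the 4 arrays of the study; day 6 is passage 0 and day 12 passage 1. Filled points are detected, hollow points are not well above background, values under 1 are drawn at 1, and lines only join points of 1 miRNA. Hox-cluster miRNAs are hollow at day 6 and highest on the NFIA OE title at day 12, while miRNAs of the pluripotent-cell clusters are above 100 units at day 6 for 5 of the 6 drawn and under 30 at day 12.

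miR-199 and miR-214 were also higher on the NFIA OE title. They are best known from mesenchymal and other connective tissue cells, and Mir199a-2 and Mir214 lie together within Dnm3os, a non-coding transcript antisense to Dnm3. miR-199a-3p gave 55.7 and 89.5 units by its probes on the control title and 246 and 373 on the NFIA OE title. That is a difference of 2.37 (SE 0.03), or 5.15-fold (1.68 with normexp). miR-199b*, from Mir199b within Dnm1, went from 39.5 units on the control title to 147.9 on the NFIA OE title by its brighter probe, a difference of 2.17 (SE 0.07), or 4.5-fold (1.26 with normexp). Its dimmer probe gave 17.04 and 58.3 units and passed detection only on the NFIA OE title.

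miR-199a-5p, the other strand of the miR-199a hairpin (chr1:162217844-162217866, plus strand, for Mir199a-2), was not well above background on the control title. The spots of its detected probe gave 14.1 to 28.5 units there and 98.9 to 122.6 on the NFIA OE title, at least 6.15-fold higher. miR-214, at chr1:162223438-162223459 on the plus strand, gave 3.803 and 17.2 units by its probes on the control title and 45.2 and 109.6 on the NFIA OE title, at least 3.86-fold higher. For these probes, no spot on the control title reached the dimmest spot of the same probe on the NFIA OE title. In all, 4 of 5 listed miR-199 and miR-214 strands on the array were detected on the NFIA OE title and 2 on the control title. Over all 611 miRNAs the counts were 207 and 209.

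Of the markers of other cell types, those of pluripotent cells were higher on the same title and are described next, while the other lists gave no detected signal on either array. Over all 611 miRNAs, 209 were detected on the control title and 207 on the NFIA OE title. None (0) of 9 mesenchymal, muscle and endothelial miRNAs outside miR-199 and miR-214 was detected on either secondary array. The summed intensity of that list was 12.8 units on the control title and 10.52 on the NFIA OE title, and its defining members miR-143 and miR-145 were at -0.45 and -1.44 units on the control title and 1.03 and -2.71 on the NFIA OE title, values that background subtraction leaves around 0. The same held for 8 miRNAs of blood cells (summed 17.2 and 15.05 units), 7 of epithelia (1.44 and 0.59) and 5 of pancreas and liver (1.69 and 0), each with 0 detected. Neural markers were present on both arrays: miR-9 gave 2222 units on the control title and 1305 on the NFIA OE title. Fewer cells of a type and less of a miRNA per cell cannot be told apart in such bulk samples.

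miRNAs of the pluripotent-cell clusters were faint, and more of them were detected on the NFIA OE title. The miR-290 to miR-295 cluster dominates mouse embryonic stem cells, and its main members share the seed AAGUGCU with miR-302b and miR-302d. Of 14 strands of the cluster on the array, 0 were detected on the control title and 4 on the NFIA OE title, namely miR-294, miR-291a-3p, miR-295 and miR-292-3p, beside 1.96% of all 611 miRNAs detected on that title alone. Over the probes used, miR-294 gave 13.6 units on the control title and 31.7 on the NFIA OE title, at least 1.70-fold higher. The bound was 1.505-fold for miR-291a-3p, 1.42-fold for miR-295 and 1.32-fold for miR-292-3p. All 4 were far brighter in primary neurospheres, where miR-294 averaged 143.5 and 200.6 units over its probes on the control and NFIA OE titles. On the miR-302 cluster, miR-367 (19.7 and 29.2 units, at least 1.57-fold) and miR-302d (12.9 and 19.9 units, at least 1.09-fold) were detected on the NFIA OE title alone.

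miR-302b was the pluripotent-cell miRNA measured on both secondary arrays, at 21.9 and 33.0 units by 5 spots of 1 of its 4 probes, a difference of 0.85 (SE 0.10). Its level on the control title was the lowest of any detected probe there, and on both arrays its other probes stayed at background. Summed over all its strands, the miR-290 to miR-295 list stood at 68.5 units on the control title and 117.0 on the NFIA OE title in secondary neurospheres, against 589 and 836 in primary ones. These sums lie close to the background on the secondary arrays, and the bounds of under 2-fold are correspondingly small. Whether remaining pluripotent cells contribute to other differences was not tested.

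Other miRNAs past 2-fold on the high side were dim, and each was measured by 1 of its 2 probes. miR-139-3p, from Mir139 within Pde2a, differed by 1.46 (SE 0.17), or 0.67 with normexp. Its spots ranged from 18.9 to 31.4 units (median 22.8) on the control title and from 25.1 to 78.1 (median 55.1) on the NFIA OE title, so the arrays overlapped. miR-455, encoded within the collagen gene Col27a1, gave 26.7 and 46.7 units, a difference of 1.07 (SE 0.08). miR-483*, encoded within the imprinted growth factor gene Igf2, gave 30.6 and 50.9 units, a difference of 1.00 (SE 0.07). For miR-455 and miR-483* no scaled spot overlapped between arrays, which was so for 52 of the 195 miRNAs (26.7%). Both moved to 0.50 with normexp background correction, which adds a constant and so shrinks differences of dim probes.

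**Figure D3:**
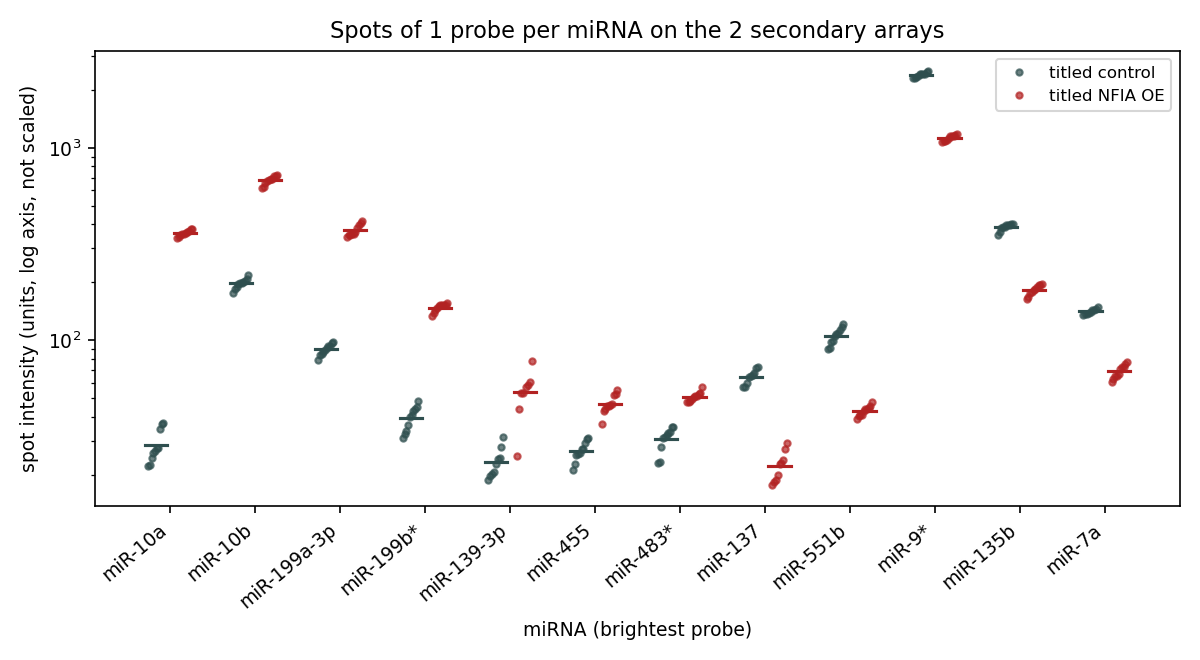
Spot intensities of the brightest probe of 12 miRNAs on both secondary arrays, in units on a log axis and not scaled between arrays; each point is a spot and each bar the mean of that probe's spots. For 11 of the 12 the spots of the arrays do not overlap, and miR-139-3p alone has a low spot on the NFIA OE title that falls among those of the control title. The 12 were picked with their differences known, so this count follows from the choice. Over all 195 measured miRNAs, scaled spots did not overlap for 52 (26.7%).

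Of 15 groups of hairpins that lie within 10 kb of each other and hold at least 3 measured strands, 10 had all their strands on 1 side of 0. No share for groups of unrelated miRNAs was computed, so this count does not show that clusters shift together. Some groups hold both strands of 1 hairpin, and miR-24 stands in more than 1 group. The side of 0 also moves with the scaling: 19.0% of all miRNAs were higher with no scaling and 72.3% with the control probes. The X-linked cluster of Mir322, Mir503, Mir542 and Mir450, which is tied to cell cycle exit and differentiation, was among the 10. All 6 of its measured strands were higher on the NFIA OE title, with a median of 0.41, beside 41.5% higher and a median of -0.08 over all miRNAs. miR-503 differed by 0.50 (57.7 and 68.1 units), miR-542-5p by 0.45 and miR-542-3p by 0.41, while miR-322 was at 0.07 (1094 and 957 units) and its partner strand miR-322* at 0.40. The 5 other than miR-322 kept their sign under every alternative, and miR-322 went as low as -0.19. None (0) of the 6 reached 1.5-fold.

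The paralogous clusters of miR-23, miR-27 and miR-24 parted. miR-23b, encoded within Aopep and listed among astrocyte-enriched miRNAs, was 1.59-fold higher on the NFIA OE title (171.5 and 225.0 units, difference 0.67, SE 0.03), and its neighbour miR-27b differed by 0.51 (74.97 and 89.2 units). Their paralogs miR-23a and miR-27a were at -0.09 and -0.10. miR-23b and miR-27b kept their sign in all 12 alternatives, while miR-23a and miR-27a were slightly above 0 with scaling to the control probes. miR-24, made by both clusters, stood between them at 0.24 (-0.02 with no scaling).

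On the low side, miR-137 and miR-551b were 2-fold or more lower on the NFIA OE title. miR-137 is a brain-enriched miRNA that acts in neuronal differentiation. The probe used gave 57.0 to 72.2 units on the control title and 17.6 to 29.3 on the NFIA OE title, a difference of -1.27 (SE 0.10). The other probe gave 58.9 and 16.3 units and was not well above background on the NFIA OE title. miR-551b, encoded within Egfem1, gave 89.9 to 121.3 units on the control title and 38.8 to 47.7 on the NFIA OE title, a difference of -1.02 (SE 0.05). The spots of the arrays did not overlap for either miRNA, as was so for 52 of all 195 measured miRNAs (26.7%) after scaling. With normexp background correction the differences were -0.37 and -0.43, so neither stayed past 1.5-fold there.

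The neuronal and neurogenic list as a whole was lower on the NFIA OE title. Of its 16 members on the array 11 were measured, and 10 of the 11 were lower, with a median of -0.51 beside -0.08 for all miRNAs and 58.5% of all miRNAs lower. The list's median was negative in every alternative, from -0.77 to -0.29. Past 1.5-fold lower were 4 of the 11, namely miR-137, miR-9*, miR-7a and miR-153, against 3.59% of all miRNAs. miR-7b and miR-212 were detected on the control title alone, at least 1.12-fold and 1.28-fold higher there. miR-124*, miR-138 and miR-383 were detected on neither.

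miR-9 and miR-9* are the strands of a hairpin abundant in neural progenitors, made from 3 genomic copies. miR-9* gave 1723 and 2395 units by its probes on the control title and 802 and 1126 on the NFIA OE title, a difference of -0.83 (SE 0.02). miR-9 gave 1308 and 3135 units on the control title and 758 and 1851 on the NFIA OE title, a difference of -0.51 (SE 0.02). The difference of miR-9* was larger than that of miR-9 by 0.32 on the log2 scale, with an SE over spots of 0.03. Both were among the brightest miRNAs on either array, so these differences, unlike those of dim miRNAs, changed little with normexp background correction (-0.81 and -0.51).

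miR-7a, a miRNA of neuronal and endocrine cells, gave 141.2 units on the control title and 68.9 on the NFIA OE title by the probe used, a difference of -0.77 (SE 0.04). miR-153, a neuronal miRNA encoded within Ptprn2 that has been reported to target Nfia, gave 342 and 175 units, a difference of -0.70 (SE 0.02). The neuron-specific miR-124 gave 239 and 137 units, a difference of -0.54 (SE 0.03). miR-128 was at -0.49, miR-129-3p at -0.27, miR-129-5p and miR-132 at -0.17 each, and miR-218, a motor neuron miRNA, at 0.11. miR-132, miR-129-5p and miR-218 changed sign in some alternatives. The scaled spots of the arrays did not overlap for miR-7a, miR-153, miR-124, miR-128, miR-9 and miR-9*, beside 52 of all 195 measured miRNAs (26.7%).

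miR-135a and miR-135b, which share most of their sequence and have been linked to Wnt signalling and neural differentiation, were lower too. miR-135b, encoded within Lemd1, gave 345 units on the control title and 165 on the NFIA OE title over its probes, a difference of -0.80 (SE 0.03). miR-135a gave 617 and 339 units, a difference of -0.59 (SE 0.04). The partner strand miR-135a* lay on the other side of 0, at 0.32 (39.3 and 40.7 units), a gap of 0.91 (SE over spots 0.08) that was the largest among 19 strand pairs measured. miR-135a* was dim, and its spots overlapped between arrays.

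The let-7 family, whose mature forms accumulate as stem cells differentiate, was mostly lower on the NFIA OE title. All 9 members, counting miR-98, were measured, and 8 were lower, beside 58.5% of all miRNAs, with a median of -0.43 that stayed negative in every alternative (-0.69 to -0.11). The value of -0.11 came with quantile normalization, where 3 of the 9 were higher and the median of all miRNAs was -0.10. The members other than miR-98 were brighter than the median miRNA, and the brighter 98 of the 195 miRNAs had a median of -0.15. let-7d gave 781 and 1325 units by its probes on the control title and 447 and 771 on the NFIA OE title, a difference of -0.53 (SE 0.02). miR-98 was at -0.49, let-7i and let-7g at -0.48 each, let-7f at -0.43, let-7a and let-7b at -0.25 each, let-7c at -0.18 and let-7e at 0.05. let-7a, let-7c and let-7e changed sign in 1 to 3 of the 12 alternatives each. None (0) reached 1.5-fold.

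Members of let-7 are close in sequence, and whether their differences follow the sequence was not tested. let-7a and let-7c differ by A19G and let-7a and let-7f by G12A. The scaled spots of let-7f and let-7a did not overlap between arrays while those of let-7c did. Over all 195 measured miRNAs they did not overlap for 52 (26.7%). The 3 strands encoded together by Mirlet7a-1, Mirlet7f-1 and Mirlet7d on chromosome 13 were at -0.25, -0.43 and -0.53. let-7c and miR-99a, encoded together on chromosome 16, were at -0.18 and -0.19, and the dim partner strand let-7c-1* was at -0.02 (SE 0.22). The same let-7c is also made by Mirlet7c-2 on chromosome 15, and let-7f by Mirlet7f-2 on chromosome X. Their signals thus cannot be assigned to 1 locus. As near-identical members may share probe signal, the order within the family is uncertain.

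Glial lists showed no shared shift of size on the array titled NFIA OE. Of 10 astrocyte-enriched miRNAs on the array 7 were measured and 6 were lower, beside 58.5% of all miRNAs, with a median of -0.14, which turned to 0.08 with scaling to the control probes. miR-29b was at -0.26, miR-29c at -0.22, miR-29a at -0.21, miR-26a at -0.14, miR-23a at -0.09 and miR-26b at -0.03, with miR-23b the exception at 0.67. Of these 7, miR-23b alone was past 1.5-fold. Of the oligodendrocyte-enriched miRNAs, miR-219 differed by -0.42 (484 and 302 units) and miR-338-3p by -0.07 (91.6 and 72.7 units), and the other 3 listed were not detected.

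Among 9 miRNAs reported to target Nfia, 8 were measured and 6 of them were lower, with a median of -0.24, beside 58.5% lower and a median of -0.08 over all miRNAs. With scaling to the control probes the list had 4 higher and 4 lower and a median of -0.02, its value nearest to 0 among the alternatives. miR-153 and miR-124 led them, followed by miR-21 at -0.41 (2227 and 1387 units), a growth-associated miRNA. miR-136 was at 0.15 and miR-322 at 0.07, and both changed sign in some alternatives. miR-223, a miRNA of blood cells, stayed at background with 6.06 and 6.197 units. miR-29a, miR-29b and miR-29c stand in this list and in the astrocyte list.

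The Dlk1-Dio3 cluster, a large maternally expressed group of miRNAs on chromosome 12, was higher on the NFIA OE title. Of 71 strands on the array 17 were measured, and 16 were higher, with a median of 0.37 against 41.5% of all miRNAs higher. The median stayed positive in every alternative, from 0.10 with no scaling to 0.59 with the control probes. miR-411* differed by 0.66 (27.8 and 36.6 units), miR-299* by 0.56, miR-127 by 0.49 (70.2 and 81.9 units), miR-379 by 0.48 and miR-494, the exception, by -0.05. Of the 17, 15 were dimmer than the median miRNA, and the dimmer 97 of the 195 miRNAs had a median of 0.03 where the brighter 98 had -0.15. In raw units the summed intensity of all 71 strands was near equal, at 868 on the control title and 869.6 on the NFIA OE title, and with no scaling 12 of the 17 were higher.

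**Figure D4:**
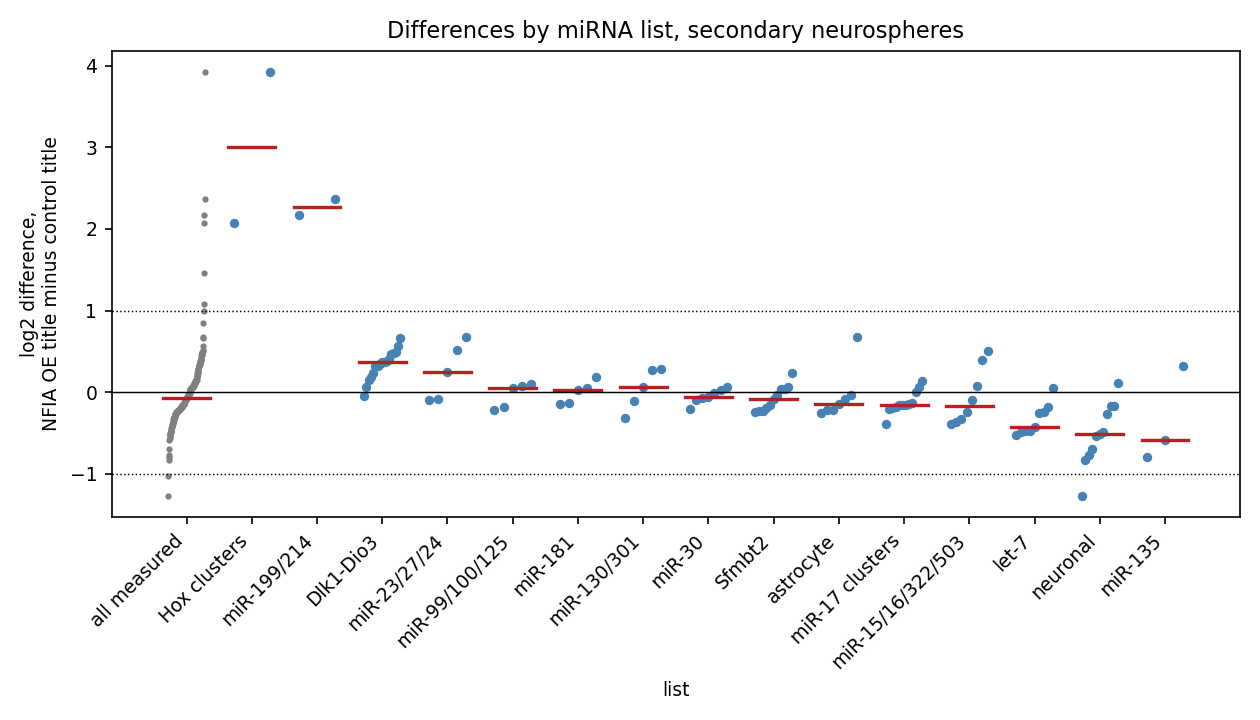
Log2 difference between the arrays titled NFIA OE and control for each measured miRNA (points), by list, with all 195 measured miRNAs at the left and the median of each list as a red bar; dotted lines mark 2-fold. The Hox-cluster and miR-199 points lie above 2, the let-7 and neuronal lists have medians of -0.43 and -0.51, and the medians of the miR-99, miR-181, miR-130, miR-30, Sfmbt2, astrocyte, miR-17 and miR-15 lists lie near 0, where they change sign with the scaling in some alternatives, as that of the miR-23 list does.

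Lists tied to proliferation stayed near the middle of the distribution. In the miR-17 clusters, which promote proliferation, 9 of 12 were lower, beside 58.5% of all miRNAs, with a median of -0.16. With quantile normalization or normexp 7 of 12 were lower, and with scaling to the control probes 1 of 12 was, with a median of 0.07. miR-92b was at -0.39 by 1 of its 4 probes (SE 0.18) and miR-17* at 0.13. The list around miR-15 and miR-503 split, with miR-15b at -0.39, miR-16 at -0.37 and miR-15a at -0.33, all bright, against miR-503 at 0.50. In the miR-99, miR-100 and miR-125 list, whose members occur beside let-7 in the genome, 3 of 5 were higher, beside 41.5% of all miRNAs, with a median of 0.05 (-0.22, with 0 of 5 higher, without scaling), and miR-125b-5p, which was among the brightest miRNAs, was at -0.22 (6358 and 4448 units).

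Of the other lists, the miR-130 and miR-301 family ran from -0.32 for miR-130a (3118 and 2078 units) to 0.28 for miR-301b (189.1 and 190.5 units). The p53-induced miR-34a was at 0.48 (233 and 270.0 units), with miR-34b-5p at 0.10 and miR-34c at -0.02. miR-210, a hypoxia-induced miRNA, was at -0.33 (933 and 620.0 units). The miR-181, miR-30 and Sfmbt2 lists had medians of 0.03, -0.06 and -0.08, and none of their members (0) reached 1.5-fold.

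The 14 miRNAs detected on the control title alone had small bounds. The largest were at least 1.28-fold for miR-212, which is processed from the same transcript as the activity-regulated miR-132, 1.25-fold for miR-592 (30.2 and 16.9 units) and 1.19-fold for miR-670. For miR-188-5p the bound was under 1, and no fold is given. By contrast the largest bounds on the NFIA OE title were those of miR-199a-5p and miR-196a given above. The one-sided miRNAs of the control title were thus close to the detection limit, which was 21.9 units there and 19.0 on the NFIA OE title.

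The primary pair, passage 0 at day 6, was set beside the secondary pair to show where the latter differs. It had the same titles and the same contradiction in its source names. Before scaling, its 75th percentile of probe intensity was 167 units on the control title and 261 on the NFIA OE title. Scaling thus lowered every primary difference, while it raised those of the secondary pair. The processing alternatives were run on the secondary pair alone. Each pair has 1 array per title, so the difference between pairs was not tested. In the primary pair 179 miRNAs were measured, 9 (5.03%) being 2-fold or more higher and 7 (3.91%) lower. At any size 79 of them (44.1%) were higher and 100 (55.9%) lower. The 153 miRNAs measured in both pairs had the same sign in 85 cases (55.6%).

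miR-199a-3p differed by 1.74 in the primary and 2.37 in the secondary pair, and miR-199b* by 1.83 and 2.17, while miR-199a-5p and miR-214 were detected on the NFIA OE title alone in both. After scaling, miR-135b (-1.31 and -0.80), miR-135a (-0.92 and -0.59) and miR-153 (-0.90 and -0.70) were lower on the NFIA OE title in both pairs. So were miR-7a (-0.74 and -0.77), miR-124 (-1.10 and -0.54) and miR-551b (-0.60 and -1.02). Without scaling, primary intensity was still lower on the NFIA OE title for miR-135b (299 units on the control title and 189) and miR-135a (278 and 226). The same held for miR-153 (117 and 99.5) and miR-124 (147 and 107). Scaling lowered every primary difference, and those of miR-551b and miR-7a were the smallest in size of these lower miRNAs. How far the primary signs of miR-551b and miR-7a depend on scaling was not tested. miR-9* was at 0.06 in the primary and -0.83 in the secondary pair. The 4 Hox-cluster miRNAs had no primary value: miR-10b gave 8.62 and 2.14 units on the primary control and NFIA OE titles, and miR-10a 6.23 and 2.18, all not well above background.

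Of the let-7 family, 6 of the 7 members measured in both pairs lay on opposite sides of 0, and let-7e was above 0 in both (0.64 in the primary and 0.05 in the secondary pair). All 7 members measured in the primary pair were higher on the NFIA OE title there, with a median of 0.81, and let-7c was at 1.81 against -0.18 in the secondary pair. The miR-99, miR-100 and miR-125 list had 5 of 5 higher in the primary pair, with a median of 0.78 against 0.05. The Dlk1-Dio3 list, at 0.37 over 17 strands in the secondary pair, had 15 of 27 higher and a median of 0.04 in the primary pair. These medians cover unlike sets of strands. By group of neighbouring hairpins, the secondary and primary medians were 0.33 and 0.20 for 9 strands from Mir379 to Mir300. They were 0.24 and 0.47 for 3 strands of Mir127, Mir434 and Mir136. For Mir377 to Mir410 they were 0.38 (3 strands) and 0.04 (4 strands). The X-linked miR-322 was at 1.46 in the primary and 0.07 in the secondary pair. Scaling moves all values of a pair together, and how far it sets these contrasts was not tested.

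**Figure D5:**
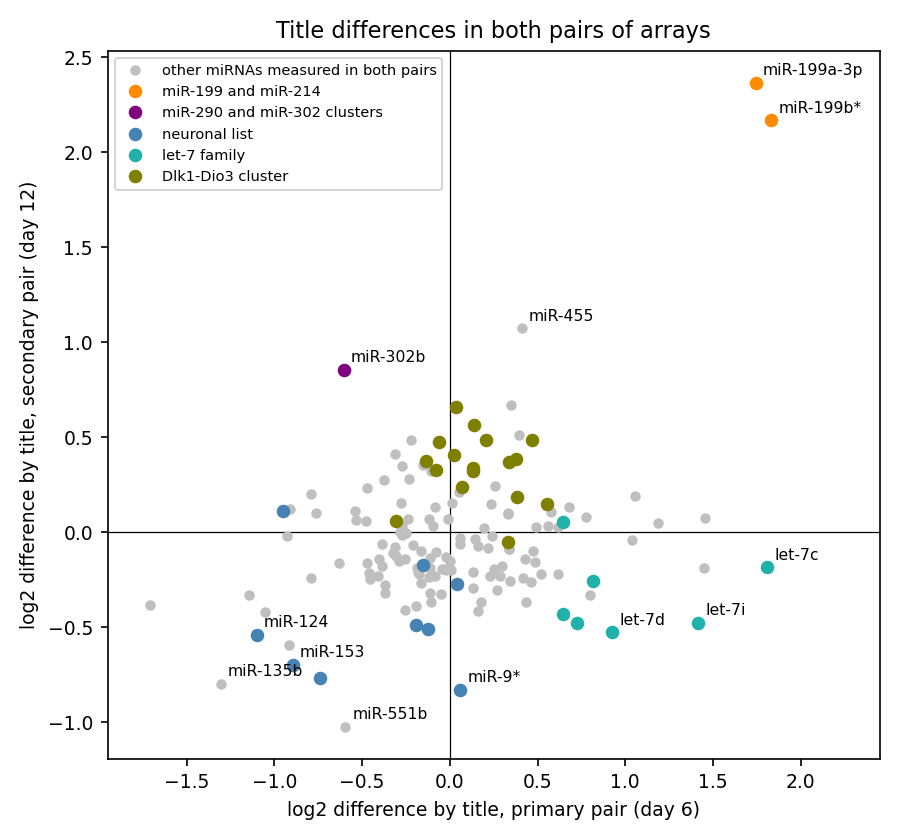
Log2 difference by title in the primary pair (x axis) against the secondary pair (y axis) for the 153 miRNAs measured in both, 1 array per title in each pair. The miR-199 strands are high in both pairs, the let-7 points lie to the right of 0 with 6 of 7 below it, and the neuronal points lie mostly to the lower left.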

How the data were processed

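Total RNA with its small fraction was labelled with Cy3 and hybridised to 1-colour Agilent mouse miRNA arrays, per the labels' protocols. The deposited scanner files give spot intensity on a linear scale, processed in Feature Extraction 10.5.1.1 by background subtraction and left unscaled, per the file headers. Processed intensity from the authors' deposited table served as an alternative, and it matched the total signal per gene over a fixed divisor for each array (33.7 for the control title and 31.0 for the NFIA OE title). Per the file headers the 4 arrays shared 1 slide, so slide position and title cannot be told apart.

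Control spots and outlier-flagged spots were dropped (271 and 249 of 12220 mouse spots on the arrays titled control and NFIA OE), and no spot was saturated (0). Unflagged spots were averaged per probe. Each array was divided by its 75th percentile over probes detected on all 4 arrays before log2 was taken. The difference of a miRNA averaged the probes that both arrays detected. Lower bounds set the bright array against the dim array's lowest detected signal, or the dim signal itself where higher. Lists are described by counts and medians beside all 195 measured miRNAs. The number of arrays limits precision. No spike-in signal was present, and viral probes gave none (0 detected on each array).

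The miRNAs described were those past 2-fold, the 12 highest and 12 lowest, up to 8 one-sided ones each way, the extremes of each list, and all members of the neuronal, let-7, Nfia-targeting, astrocyte and oligodendrocyte lists. Further miRNAs are named as examples of a list or cluster after their values were seen. The members and lists were chosen with earlier results of these data known. Array names were matched to current arm names by a table written by hand. Of 221 miRNAs detected on either array 178 matched a RefSeq hairpin and 73 a mature sequence. Calculations, quantile normalization among them, were done in Python 3.11.15 with pandas 2.3.3 and numpy 2.4.6. The normexp correction, with an offset of 50, was done in R 4.3.3 with limma 3.58.1. The probe and miRNA steps were tested on simulated data. Alternatives covered scaling, background, detection, probe and spot summaries, and the authors' values. Scaling to bright positive control probes was added after seeing the data.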

Additional observations from a re-analysis of the deposited data

Results flagged for a closer look

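Among the miRNAs chosen for description by rule, 8 had title differences in opposite directions in the secondary and primary pairs. Each difference was past 2 SE over spots, and they lay at least 2-fold apart between pairs. All let-7 members were in that choice by rule. miRNAs outside the choice were not searched, and miR-151-5p among them had log2 differences of -0.33 (secondary) and 0.80 (primary). Each pair has 1 array per title, so the difference between pairs was not tested. For let-7a the log2 difference, NFIA OE title minus control title, was -0.25 in the secondary and 0.81 in the primary pair, for let-7c -0.18 and 1.81, and for let-7d -0.53 and 0.92. For let-7f it was -0.43 and 0.65, for let-7g -0.48 and 0.72, and for let-7i -0.48 and 1.41. miR-218 went the other way, at 0.11 and -0.95, as did miR-302b, at 0.85 and -0.60. The secondary values of let-7a, let-7c and miR-218 changed sign in some processing alternatives. That of miR-302b, from 1 probe near the detection limit, kept its sign where measured but ran from 0.26 to 1.08. The alternatives were not run on the primary pair, whose 75th percentiles before scaling were 167 units (control title) and 261 (NFIA OE title). Scaling thus lowered every primary difference. Without it the positive primary let-7 values would be larger, and those of miR-218 and miR-302b would be less negative or positive. In unscaled units miR-218 averaged 87.2 on the primary control title and 70.3 on the NFIA OE title. How far the primary sign of miR-302b depends on scaling was not tested.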

How the results depend on the processing

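The 2-fold split of 7 higher and 2 lower was recomputed under 12 alternatives. The 7 higher became 4 with normexp background correction and 4 with detection in every spot. The 2 lower became 5 with either the all-probe percentile or no scaling, 1 with the median set to 0, every spot required, no detection filter or scaling to positive control probes, and 0 with normexp. The 10 higher at 1.5-fold became 5 with normexp, 5 with every spot required and 26 with the positive control probes. The 7 lower became 27, 31, 2, 17 and 3 with the percentile over all probes, no scaling, normexp, the authors' processed values and the positive control probes. normexp adds an offset, which shrinks differences of dim probes, and requiring every spot left 169 miRNAs. The cause of the other shifts was not tested. Of 1056 values of named miRNAs and lists under the alternatives, 453 moved, and none (0) of those past 1.5-fold changed sign. A miRNA was counted as moved past about 2 SE over spots, and a list median past the standard deviation among its members. miR-10a ran from 2.44 to 4.15, miR-10b from 1.64 to 2.30, miR-199a-3p from 1.68 to 2.59, miR-199b* from 1.26 to 2.39, miR-139-3p from 0.67 to 1.69, miR-137 from -1.53 to -0.37 and miR-551b from -1.29 to -0.43. Of these, miR-10a, miR-137 and miR-139-3p gave no value with every spot required. The lowest detected signal, 21.9 and 19.0 units against a negative control median of 3.03 and 2.92 units, limits what could be measured. Leaving out a replicate was not possible, with 1 array per group. No paired analysis was possible because each group has 1 array.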
